A study of Mus musculus with 6 samples.

Results

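The stefin A cluster genes of the mouse are Stfa1, Stfa2, Stfa2l1, Stfa3, Cstdc4 and Csta2, 6 of the 32285 genes in the deposited feature lists, found there by their symbols. Stefins, also called type 1 cystatins, are small inhibitors that lack a secretion signal and act inside the cell, where they bind and block papain-like cysteine proteases such as cathepsins B, H, L and S. Stefin A is best known from skin and from cells of the myeloid lineage. The mouse carries a row of closely related stefin A copies in a single chromosomal region, and several of them are known as abundant transcripts of neutrophils. The genes were proposed with earlier results of these data known, so their levels are given as a description of these libraries.

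The cells came from mice with brain tumors grown from SB28, a mouse glioma cell line, 18 days after 10000 of its cells had been injected, and no other treatment or allele is named. Each of the 3 groups had 2 libraries of droplet-based single-cell RNA sequencing. Sorted tumor libraries held neutrophils taken from tumors through a CD45+ CD11b+ LY6G high LY6C low or negative gate, CD45+ tumor libraries held tumor leukocytes of all kinds, and blood libraries held neutrophils sorted from blood through the same gate. The labels give no strain, sex or age, and they do not say whether the samples of a group came from separate mice, so p-values measure how far these samples spread, and that spread may be technical.

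Within each library, a cell was counted as a neutrophil when S100a8 and S100a9, the genes of an abundant neutrophil protein pair, made up at least 0.5% of its unique molecular identifiers (UMIs, each standing for 1 captured RNA molecule). That gave 3347 and 5548 neutrophils in sorted tumor, 613 and 809 in CD45+ tumor and 2951 and 5006 in blood, with median depths of 3904 and 3871.5, 1614 and 2648, and 4253 and 3952 UMIs per cell in the same order. All 12 genes of a neutrophil marker list were detected in the neutrophils of every library, and the list summed to between 13320 and 30090 counts scaled to a fixed total of UMIs of the same cells (CPM). RNA of other cells was present too: 11 macrophage marker genes summed to 5151 and 3928 CPM in sorted tumor neutrophils and to 8707 and 12860 in CD45+ tumor neutrophils, against 358.4 and 472.5 in blood neutrophils. Results are therefore also given with cells left out in which markers of other leukocytes exceeded 0.2% of UMIs. This brought those sums to 301.8 and 270.3, 563 and 823.1, and 227.7 and 267.2. It left 2867 and 4969 cells in sorted tumor, 367 and 477 in CD45+ tumor and 2777 and 4448 in blood. In CD45+ tumor the summed UMIs fell from 1384566 and 3400261 to 646495 and 1365627, so most RNA of these neutrophils came from marker-carrying cells. Their 9 microglia markers summed to 1413 and 1761 CPM before and 216.6 and 187.5 after, against 838.6 and 1020 in the other cells. The markers used were those of macrophages, microglia, dendritic, T or NK and B or plasma cells, and not of monocytes. The 7 monocyte markers summed to 1689 and 1827 CPM in sorted tumor neutrophils before and 1671 and 1851 after. In CD45+ tumor neutrophils the sums were 2371 and 3007 before and 1352 and 2397 after. In blood neutrophils they were 1208 and 1968 before and 1145 and 1897 after. Sorted tumor library 2 and CD45+ tumor library 1 shared 161 cell barcodes, 2.446% of the smaller library, against at most 0.402% for any other pair. The shared barcodes had a median of 27899 UMIs in the first and 740 in the second, and results that change without them are given below. Levels are CPM, and since the 3' method counts 1 tag per molecule they are not divided by transcript length.

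The 6 genes lie within 298.6 kb of chromosome 16 (mm10, GENCODE vM21), from 36156811 to 36455392, among 9 protein-coding genes. Stfa2l1 (36156811 to 36161953), Cstdc4 (36184212 to 36188111), Csta2 (36221468 to 36257444) and Stfa1 (36276951 to 36285373) are on the plus strand, and Stfa2 (36403992 to 36408457) and Stfa3 (36450537 to 36455392) on the minus strand. In that annotation Cstdc4 is named Gm5483 and Csta2 is named 2010005H15Rik, and they were matched by gene identifier. The promoters are shown because 5 of the 6 genes share a run just before their RefSeq start that Csta2 lacks. Those of Stfa2l1 and Cstdc4, the most abundant members, and of Csta2 are given below 5′ to 3′ as RefSeq sequence on GRCm38.p6, with the shared 13-base run in capitals. For Stfa1, Stfa2 and Stfa3, 30 bases around that run are given.
Stfa2l1, chr16:36156561-36156810, plus strand: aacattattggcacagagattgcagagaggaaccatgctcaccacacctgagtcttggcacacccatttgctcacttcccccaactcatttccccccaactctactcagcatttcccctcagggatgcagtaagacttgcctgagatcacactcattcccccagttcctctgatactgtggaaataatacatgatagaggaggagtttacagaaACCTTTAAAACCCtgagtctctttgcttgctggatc
Cstdc4, chr16:36183962-36184211, plus strand: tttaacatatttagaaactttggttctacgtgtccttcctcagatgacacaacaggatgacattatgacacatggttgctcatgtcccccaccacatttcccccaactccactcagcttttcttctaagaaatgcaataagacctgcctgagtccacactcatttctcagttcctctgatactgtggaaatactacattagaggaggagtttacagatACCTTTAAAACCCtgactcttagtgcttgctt
Csta2, chr16:36221312-36221467, plus strand: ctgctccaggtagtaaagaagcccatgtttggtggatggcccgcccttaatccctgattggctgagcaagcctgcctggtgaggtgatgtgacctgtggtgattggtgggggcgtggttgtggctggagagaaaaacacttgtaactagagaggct
Stfa1, chr16:36277107-36277136, plus strand: tttcggatACCTTTAAAACCCtgagtctca
Stfa2, chr16:36408374-36408403, minus strand: ttacagaaACCTTTAAAACCCtgagtctct
Stfa3, chr16:36455405-36455434, minus strand: tacagataACCTTTAAAACCCcgagtctca

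The run ACCTTTAAAACCC began 36 bases before the RefSeq start in Stfa2l1, 34 in Stfa3, 33 in Stfa1 and 32 in Stfa2 and Cstdc4. It was picked as the longest run present in at least 5 of the 6 windows, so its presence in 5 members is not a result. On either strand it was found in 8 of 32851 promoter windows of the same length (0.0244%), which were those of these 5 genes and of Csta3, Cstdc3 and Gm7260. A link of the run to the levels was not tested. The windows of Stfa2 and Stfa2l1 were 92.3% identical over 246 aligned bases and those of Stfa2l1 and Cstdc4 78.5% identical over 233, whereas Csta2 aligned with Cstdc4 over 49 bases only. Csta2 has 3 annotated transcript starts, the last of which lies far downstream and is not covered. The stretch of 156 bases printed above ends just before the first start, at 36221468. The window that was searched and aligned was 250 bases long and ran on to just before the second start, at 36221562. Its bases from the first start on are not printed. RefSeq and GENCODE starts differ for some members, and by the GENCODE bounds the stretches of Stfa1 and Stfa2 lie inside the gene. Stfa1 has 2 GENCODE starts, of which 36277147 lies after its stretch. Stfa2 has 1, at 36408457, which lies upstream of its stretch. Motifs were searched as letters on both strands, and a link of any of them to the levels below was not tested. The hypoxia response core ACGTG was in the Cstdc4 window (16.6% of all promoter windows held it), and its variant GCGTG in those of Csta2 and Stfa3 (28.2%). The PU.1 core GAGGAAG was in those of Stfa1 and Cstdc4 (10.6%) and the C/EBP pattern TTGCNNAA in that of Stfa1 (9.56%). AP-1 (TGANTCA, 6.75%), NF-kB (1.41%), interferon response element (2.98%) and TATAAA (12.4%) letters were in no member's window.

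The transcripts are alike enough that counting could have moved reads between members. Cstdc4 and Csta2 transcripts were 94.9% identical over 410 aligned bases and Stfa2 and Stfa2l1 transcripts 95.7% identical over 373, while other pairs shared between 74.9% and 82.2%. Of the 90-base windows in the last 300 bases, which 3' reads mostly cover, 21.3% in Cstdc4 and in Csta2 occurred also in the other of the pair, against 3.8% in Stfa2, 3.3% in Stfa2l1 and 0 in Stfa3. In Stfa1, 18.5% of these windows occurred also in the neighbouring gene Cstdc5, which that annotation names BC100530. Of 50-base windows, 51.0% in Stfa1 were shared (with Cstdc5 and a gene named BC117090), against 33.9% in Cstdc4 and in Csta2. The share was 25.1% in Stfa2, 24.3% in Stfa2l1 and 0 in Stfa3. Reads that match more than 1 gene cannot be assigned by sequence. The levels of all members except Stfa3 are therefore uncertain by what the authors' counting did with such reads.

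The mix of the members differed between tumor and blood neutrophils more than their sum did. Summed, they had 4271 and 5368 CPM in sorted tumor neutrophils, 2528 and 3534 in CD45+ tumor neutrophils and 4234 and 3073 in blood neutrophils. The sums of sorted tumor lay above those of CD45+ tumor, and the blood sums overlapped with CD45+ tumor and lay just under sorted tumor. Cstdc4 held 63.5% ± 0.431 of this sum in sorted tumor and 62.4% ± 2.16 in CD45+ tumor, against 31.1% ± 1.20 in blood (SD, n = 2 each). Stfa2l1 held 28.7% ± 0.976 in sorted tumor and 27.5% ± 0.7 in CD45+ tumor, against 60.1% ± 0.424 in blood. The leading gene was therefore Cstdc4 in each tumor library and Stfa2l1 in each blood library. With 2 samples a group, a permutation test of a single value cannot go below an exact two-sided p of 0.333, so these shares carry no test.

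**Figure D1:**
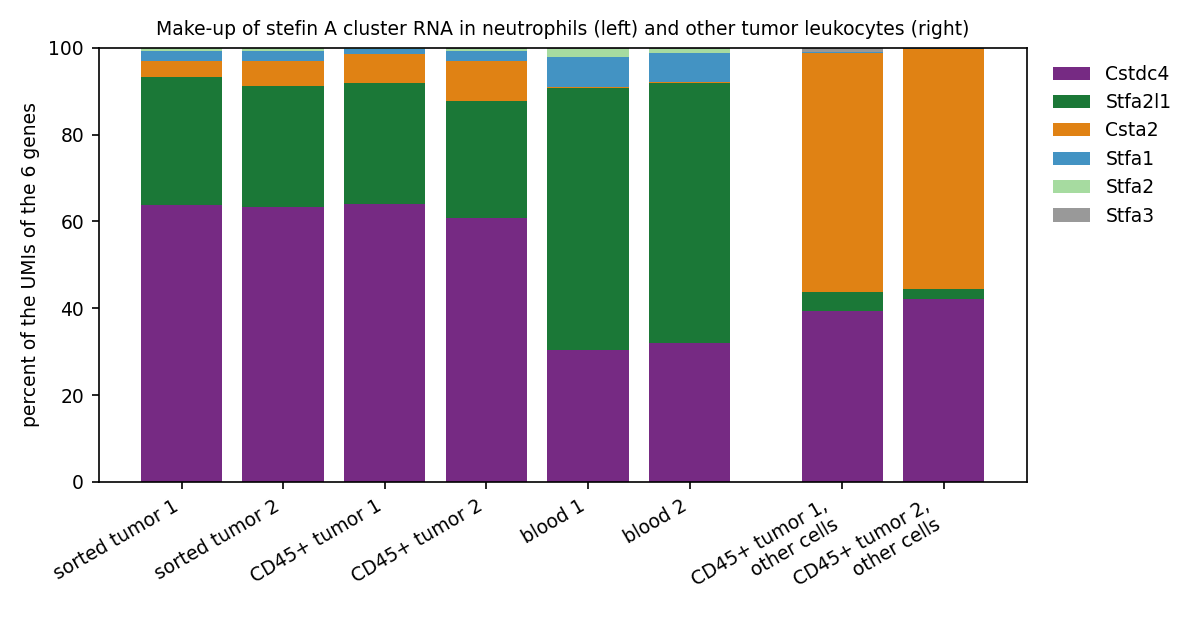
Percent of the UMIs of the 6 genes that each gene held, per library, in neutrophils (left 6 bars) and in the other cells of the CD45+ tumor libraries (right pair). Cstdc4 was the largest part of each tumor neutrophil bar, Stfa2l1 of each blood bar and Csta2 of the bars of other cells.

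The ratio of Cstdc4 to Stfa2l1 UMIs expresses this in 1 number that does not depend on how other RNA in the cells is scaled. It was 2.17 and 2.26 in sorted tumor neutrophils and 2.29 and 2.26 in CD45+ tumor neutrophils, against 0.501 and 0.534 in blood neutrophils. With cells carrying markers of other leukocytes left out it was 2.18 and 2.27 in sorted tumor and 2.36 and 2.32 in CD45+ tumor, against 0.503 and 0.536 in blood, so it was as large without them. Without the shared barcodes it was 2.17 and 2.26 in sorted tumor and 2.28 and 2.26 in CD45+ tumor. Tumor cells were released from tissue before sorting and blood cells were not, so tissue and handling cannot be told apart in any comparison of tumor with blood.

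Cstdc4, a stefin A family gene whose product is little studied, was the most abundant member in tumor neutrophils. It had 2725 and 3393 CPM in sorted tumor neutrophils and 1616 and 2151 in CD45+ tumor neutrophils, against 1281 and 982.2 in blood neutrophils. On this scale no tumor value overlapped with a blood value. In sorted tumor against blood it was higher by 1.5 ± 0.23 on the log2 scale (SE, edgeR quasi-likelihood test, adjusted p = 0.000928), and it stayed between 1.24 and 1.93 under each alternative listed in the processing section. After TMM scaling, which sets libraries level over all genes, it averaged 1663 ± 373.1 in CD45+ tumor and 1297 ± 277.1 in blood (SD, n = 2 each) with overlapping values, and the log2 change of 0.36 ± 0.24 did not pass (edgeR adjusted p = 0.23). It was 1.43 ± 0.31 (edgeR adjusted p = 0.0164) with cells carrying markers of other leukocytes left out 0.59 (edgeR adjusted p = 0.0352) without CD45+ tumor 1, and turned to -0.16 with no doublet removal.

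Csta2, another stefin A family gene, showed the largest difference of the 6. It had 162.1 and 313.9 CPM in sorted tumor neutrophils and 166.8 and 321.7 in CD45+ tumor neutrophils, against 12.05 and 6.942 in blood neutrophils. The tumor and blood values were far apart, and those of sorted tumor and CD45+ tumor overlapped. It was higher by 4.76 ± 0.43 on the log2 scale in sorted tumor against blood (edgeR adjusted p = 6.24e-05) and by 4.34 ± 0.44 in CD45+ tumor against blood (edgeR adjusted p = 7e-04). These comparisons share the blood libraries. With cells carrying markers of other leukocytes left out the differences were 5.15 ± 0.38 and 5.51 ± 0.92, no smaller than with them. Monocyte markers were not used to leave cells out. At a neutrophil threshold of 1% the difference in CD45+ tumor was 3.66 (edgeR adjusted p = 0.000868). For each Cstdc4 UMI there were 0.0595 and 0.0925 Csta2 UMIs in sorted tumor and 0.103 and 0.15 in CD45+ tumor, against 0.0094 and 0.00707 in blood, so the ratio of this near-identical pair differed between tumor and blood.

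Stfa2l1, a stefin A2-like copy, led in blood. It had 1254 and 1502 CPM in sorted tumor neutrophils and 706.4 and 952.3 in CD45+ tumor neutrophils, against 2558 and 1838 in blood neutrophils, and no values overlapped between groups. Sorted tumor against blood was lower by a log2 change of -0.61 ± 0.23, just past the threshold (edgeR adjusted p = 0.0486). This call was lost with cells carrying markers of other leukocytes left out (-0.18, edgeR adjusted p = 0.47), without the shared barcodes (-0.49, edgeR adjusted p = 0.21), without sorted tumor 1 (-0.40, edgeR adjusted p = 0.2) and without blood 1 (-0.33, edgeR adjusted p = 0.239). It was also lost with RLE size factors, with no doublet removal and at thresholds of 1% and 2%. CD45+ tumor against blood was lower by a log2 change of -1.78 ± 0.26 (edgeR adjusted p = 0.00246), which was -0.74 (edgeR adjusted p = 0.115) with those marker-carrying cells left out.

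Stfa1, which encodes stefin A1, was a small part of the sum and lower in tumor. It had 99.44 and 123.5 CPM in sorted tumor neutrophils and 32.5 and 83.82 in CD45+ tumor neutrophils, against 290.8 and 207.6 in blood neutrophils, again without overlap. The log2 change was -1.09 ± 0.22 in sorted tumor against blood (edgeR adjusted p = 0.00324) and -2.40 ± 0.43 in CD45+ tumor against blood (edgeR adjusted p = 0.00507). With marker-carrying cells left out these were -0.63 ± 0.18 (edgeR adjusted p = 0.016) and -1.5 ± 0.34 (edgeR adjusted p = 0.0182).

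Stfa2 and Stfa3, which encode stefins A2 and A3, were the least abundant. Stfa2 had 25.73 and 31.45 CPM in sorted tumor neutrophils and 6.5 and 18.82 in CD45+ tumor neutrophils, against 75.4 and 26.74 in blood neutrophils. The blood samples differed so much that one lay between the sorted tumor values, and the log2 change of -0.77 ± 0.43 did not pass (edgeR adjusted p = 0.152) and was called lower with no filter on low counts (-0.75, edgeR adjusted p = 1.25e-05). It was 0.19 without blood 1 and -1.37 (edgeR adjusted p = 1.04e-05) without blood 2. In CD45+ tumor against blood Stfa2 was lower by a log2 change of -2.23 ± 0.65 (edgeR adjusted p = 0.0283), which was -1.77 (edgeR adjusted p = 0.0525) without CD45+ tumor 1, -3.36 without CD45+ tumor 2 and -1.33 without blood 1. Stfa3 had 4.45 and 4.511 CPM in sorted tumor neutrophils and 0 (which at this depth allows up to 2.17) and 6.47 in CD45+ tumor neutrophils, against 16.48 and 11.21 in blood neutrophils. Its tumor values all lay under its blood values, by a log2 change of -1.55 ± 0.25 in sorted tumor (edgeR adjusted p = 0.0011). The change of -2.07 ± 0.72 in CD45+ tumor (edgeR adjusted p = 0.0483) rests on 22 UMIs, all in 1 library, and was -0.49 (edgeR adjusted p = 0.62) with marker-carrying cells left out. It was also lost without blood 1 (-1.86, edgeR adjusted p = 0.111) and without the shared barcodes (-2.06, edgeR adjusted p = 0.0529), and without CD45+ tumor 2 no Stfa3 UMI is left in that group.

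Of the 6 genes, 2 were called higher and 3 lower in sorted tumor against blood, where 33.3% and 30.7% of 13635 tested genes were called higher and lower. In CD45+ tumor against blood 1 was called higher and 4 lower, against 30% and 29.9% of 12310 genes. Against a background in which most genes were called, these counts are not a result about the members. The median log2 change of the 6 was -0.69 in sorted tumor and -1.93 in CD45+ tumor, against 0.02 and -0.01 over all genes tested.

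**Figure D2:**
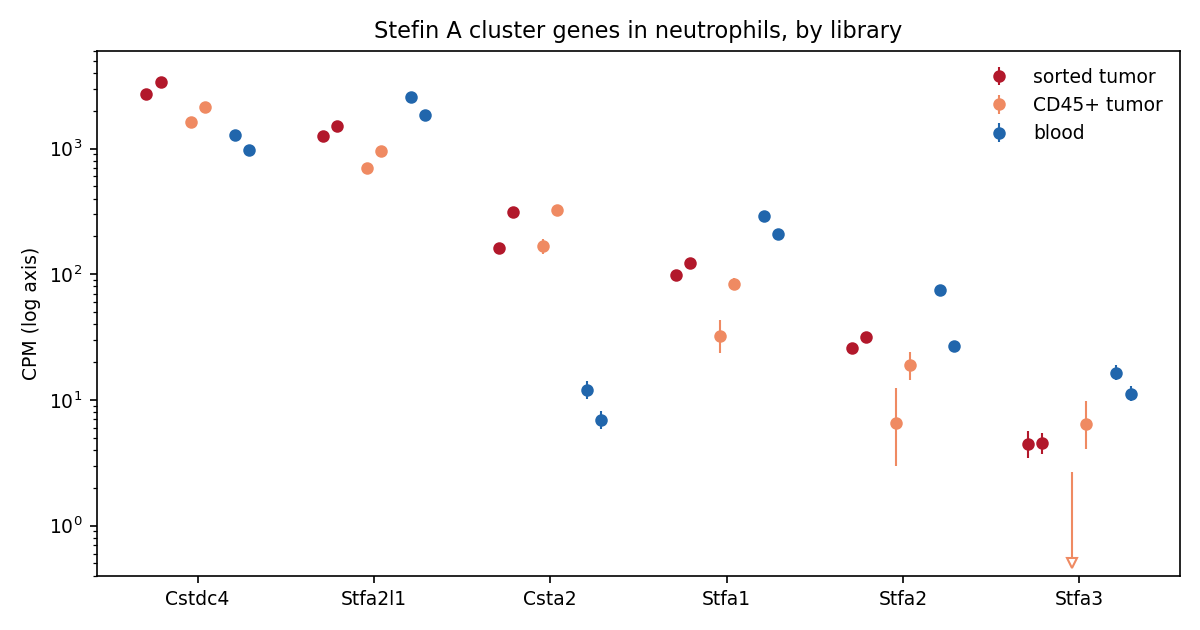
CPM (log axis) of each gene in neutrophils, with a point per library and 95% Poisson intervals that cover counting error only. The open triangle at the bottom marks the library with 0 Stfa3 UMIs, and the Csta2 points of tumor lie far above those of blood.

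**Figure D3:**
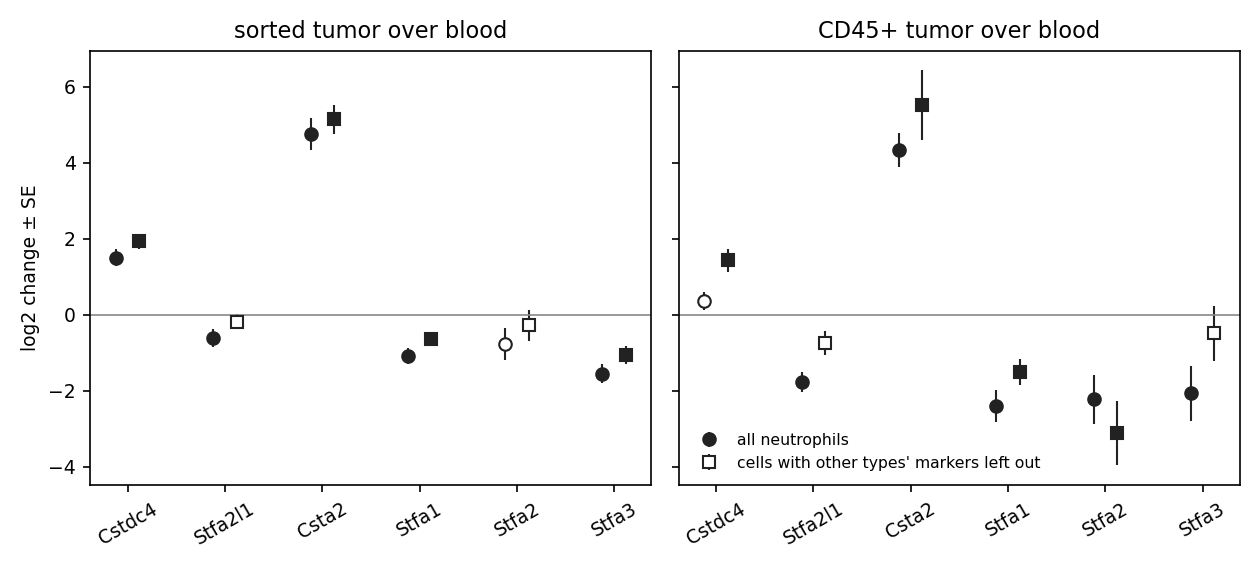
Log2 change ± SE of each gene in sorted tumor (left) and CD45+ tumor (right) over blood neutrophils, in all neutrophils (circles) and with cells carrying markers of other leukocytes left out (squares). Filled symbols have an edgeR adjusted p under 0.05, and Csta2 was called higher in each of the 4 fits while the symbols of Stfa2l1 turn open when those cells are left out.

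Sorted tumor and CD45+ tumor neutrophils were chosen by the same rule from the same tissue, taken with and without the LY6G gate. Only Stfa2l1 was called between them, with a log2 change of 1.10 ± 0.24 (edgeR adjusted p = 0.0448), against 2.17% of 12497 genes called higher and 3.92% lower. Cstdc4 (1.07, edgeR adjusted p = 0.0559), Stfa2 (1.40, edgeR adjusted p = 0.0693) and Stfa1 (1.24, edgeR adjusted p = 0.0817) did not pass, and Csta2 (0.33) and Stfa3 (0.48) had overlapping values. The call of Stfa2l1 was lost without sorted tumor 1 (edgeR adjusted p = 0.0558), without sorted tumor 2 (edgeR adjusted p = 0.261) and without the shared barcodes (edgeR adjusted p = 0.113). Cstdc4, Stfa1 and Stfa2 were called higher in sorted tumor without CD45+ tumor 1 (0.87, 0.77 and 0.96) and without CD45+ tumor 2 (1.31, 2.17 and 2.53). The macrophage marker sums given above were higher in CD45+ tumor neutrophils, and with marker-carrying cells left out edgeR called 0 genes, members included, in either direction (478 higher and 648 lower at an unadjusted p under 0.05, of which 2 members higher). The part of that RNA in the difference was not tested.

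Most of the RNA of a member came from a minority of neutrophils. After each cell was thinned to 1000 UMIs, Cstdc4 was found in 41.3% and 44.3% of sorted tumor neutrophils and 35.8% and 39.3% of CD45+ tumor neutrophils, against 30.95% and 25.1% of blood neutrophils. The tenth of cells with the most Cstdc4 held 61.6% and 57.2% of its UMIs in sorted tumor, 65.2% and 61.4% in CD45+ tumor, and 64.35% and 72.46% in blood. Without thinning, shares of cells with Cstdc4 were 51.8% and 54.8%, 40.5% and 43.9%, and 40.3% and 32.6% in the same order. For Stfa2l1 the thinned shares were 34.2% and 36.6% in sorted tumor and 31.3% and 34% in CD45+ tumor, against 50.5% and 39.7% in blood. Csta2 was in 5.60% and 7.40% of sorted tumor and 2.92% and 5.92% of CD45+ tumor neutrophils, against 0.815% and 0.519% of blood neutrophils. In T or NK-like cells of the CD45+ tumor libraries, which should lack these genes, thinned shares were 0 of 295 and 0 of 182 cells for Cstdc4, which allows shares of up to 1.02% and 1.65%, and 0.678% and 0.550% for Csta2, at median depths of 3920 and 5823.5 UMIs. The blood shares of Csta2 were close to those of the T or NK-like cells, which rest on 2 and 1 cells of tumor libraries where Csta2 RNA was more abundant. The 86 and 78 cells of the blood libraries under the S100a8 and S100a9 threshold had 0 UMIs of Csta2.

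Stfa2l1 and Csta2 tended to occur in cells that also had Cstdc4. Among sorted tumor neutrophils with Stfa2l1, 72.6% and 79.0% also had Cstdc4, against 25.04% and 24.26% of those without Stfa2l1. In CD45+ tumor these shares were 62.1% and 76.1% against 23.8% and 20.3%, and in blood 49.6% and 47.0% against 11.9% and 10.7%. Of sorted tumor neutrophils with Csta2, 89.6% and 92.2% also had Cstdc4, against 38.45% and 40.49% of those without Csta2. The part of reads that match both genes in this was not tested. Pairs of scarcer members did not all go this way. In blood 1, Stfa3 was in 0.505% of the 198 neutrophils with Stfa1, against 1.067% of those without it. Many neutrophils had none of the 6 genes at 1000 UMIs: 48.8% and 47.1% in sorted tumor, 51.8% and 51.7% in CD45+ tumor, and 41.8% and 52.5% in blood.

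Within a library, neutrophils were ranked by the share of their UMIs in 14 hypoxia genes such as Slc2a1 and Vegfa, split into 3 equal parts, and the top and bottom parts were compared without a test, since cells are not replicates. Cstdc4 had 3594 and 3730 CPM in the top part and 1861 and 2963 in the bottom part of sorted tumor neutrophils. In CD45+ tumor it had 2023 and 4185 in the top and 847.4 and 1940 in the bottom part, and in blood 1216 and 860 in the top and 1307 and 1032 in the bottom part. Cstdc4 was thus higher in the top part of each tumor library and lower in that of each blood library. The ratio of Cstdc4 to Stfa2l1 was 2.88 and 2.61 in the top and 1.497 and 1.845 in the bottom part of sorted tumor neutrophils, and 2.53 and 2.98 in the top and 1.20 and 2.03 in the bottom part of CD45+ tumor neutrophils. In blood it was 0.501 and 0.490 in the top and 0.512 and 0.547 in the bottom part. Macrophage markers moved the other way in sorted tumor, at 2353 and 1411 CPM in the top and 4680 and 4031 in the bottom part. With marker-carrying cells left out, the ratio in the top part was 1.98 and 1.43 times that in the bottom part in sorted tumor, 1.59 and 1.49 times in CD45+ tumor and 0.978 and 0.883 times in blood.

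**Figure D4:**
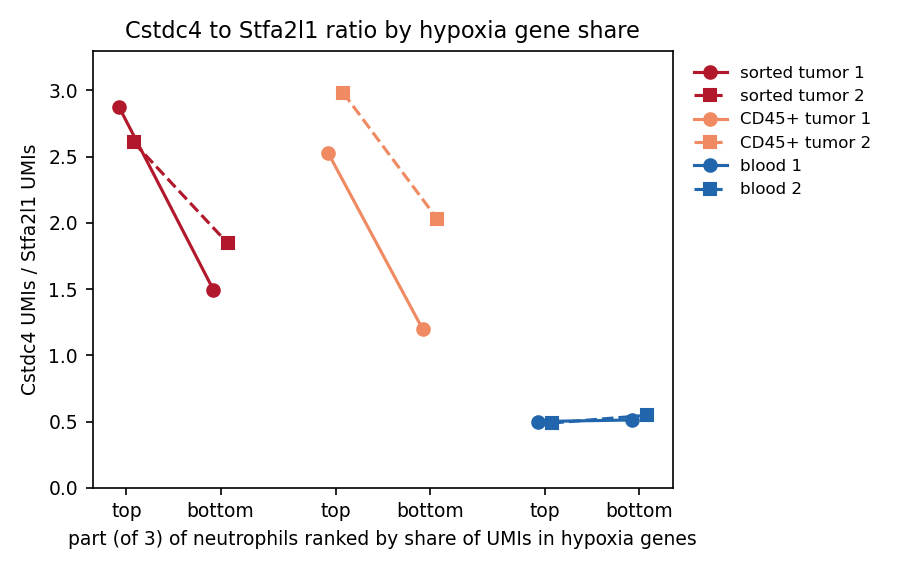
Ratio of Cstdc4 to Stfa2l1 UMIs in the top and the bottom part of neutrophils by share of UMIs in hypoxia genes, with a line per library. The ratio is greater in the top part of the 4 tumor libraries and near 0.5 in both parts of the blood libraries.

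Ranking by 7 granule genes such as Ngp and Camp, which are made early in neutrophil development, gave the clearest pattern for Stfa1. It had 141 and 178.2 CPM in the top and 47.38 and 47.46 in the bottom part of sorted tumor neutrophils, 52.22 and 136.2 in the top and 29.64 and 60.65 in the bottom part of CD45+ tumor neutrophils, and 352.6 and 212.3 in the top and 232.8 and 173.5 in the bottom part of blood neutrophils. The top part had more Stfa1 in every library. Ranked by 13 interferon-response genes, Csta2 had 77.07 and 189.2 CPM in the top and 258.8 and 528.7 in the bottom part of sorted tumor neutrophils. In CD45+ tumor it had 60.13 and 57.15 in the top and 105.6 and 206.8 in the bottom part, and in blood 18.91 and 7.091 in the top and 8.596 and 6.387 in the bottom part. All cells of the bottom part in the tumor libraries had 0 UMIs of the interferon-response genes. Cstdc4, Stfa2l1 and Stfa1 were also lower in the top part of each tumor library. In sorted tumor the top part had 0.744 and 0.7 times the Cstdc4 of the bottom part. For Stfa2l1 this was 0.637 and 0.775 times, for Stfa1 0.532 and 0.584 times and for Csta2 0.298 and 0.358 times. Macrophage markers were higher with interferon genes, at 5919 and 4270 CPM in the top and 1107 and 658.9 in the bottom part of sorted tumor neutrophils. With marker-carrying cells left out Csta2 had 92.04 and 196.9 in the top and 281.8 and 527.1 in the bottom part of sorted tumor neutrophils, so the difference was present there too.

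The genes whose values most resembled the summed members across cells were correlated with them only weakly, which in sparse counts is a description and no finding. In sorted tumor the first 3 of 1376 genes ranked were Fam162a (Pearson r = 0.238 and 0.219 over 3347 and 5548 cells), the chemokine gene Cxcl3 (0.21 and 0.195) and the formyl peptide receptor gene Fpr1 (0.163 and 0.161). In blood the first 3 of 1530 were S100a9 (0.183 and 0.193 over 2951 and 5006 cells), S100a8 and S100a11. Cells of a library share its depth and free RNA, and S100a8 and S100a9 also chose the cells. Cells just over the 0.5% threshold had less Cstdc4 and Stfa2l1 than the average neutrophil in each library, while Csta2 differed between libraries. Cstdc4 had 1137 and 1569 CPM between 0.5% and 1% in sorted tumor, close to the 1195 and 1437 just under it. In blood Stfa2l1 had 1323 and 317.1 just over and 678.1 and 295.8 just under the threshold, and in CD45+ tumor Cstdc4 had 895.2 and 1473 just over and 989.8 and 430.5 just under it. Csta2 had 30.1 and 204.7 CPM just over the threshold in sorted tumor, 355 and 755.8 in CD45+ tumor and 29.39 and 0 in blood, so in both CD45+ tumor libraries and in blood 1 it was above the average neutrophil. The 102 and 91 cells just over it in CD45+ tumor held 136 of 231 and 646 of 1094 Csta2 UMIs of the neutrophils.

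Outside the cells counted as neutrophils, the members were scarce in the CD45+ tumor libraries, apart from Csta2 and Cstdc4. Because the cells were split by S100a8 and S100a9, this comparison carries no test. Summed, the 6 genes had 2528 and 3534 CPM in neutrophils and 142.2 and 198 in the 8039 and 7298 other cells, a log2 ratio of 4.16. The ratio was greatest for Stfa2 (8.43 ± 0.83, SD, n = 2), Stfa1 (7.49 ± 1.02) and Stfa2l1 (7.32 ± 0.69), smaller for Cstdc4 (4.77 ± 0.12) and least for Csta2 (1.32 ± 0.33). The ratio of Csta2 depended on the threshold, at 1.96 ± 0.49 for 0.25%, 0.43 ± 0.26 for 1% and 0.74 ± 0.47 for 2%. Csta2 had 166.8 and 321.7 CPM in neutrophils against 78.39 and 109.8 in other cells, where it was the leading member with 55.3% ± 0.233 of the sum. Cstdc4 had 1616 and 2151 in neutrophils against 55.85 and 83.47 in other cells. Stfa2l1 was down to 6.214 and 4.251 CPM in other cells, Stfa1 to 0.298 and 0.283, and Stfa2 to 0.0284 and 0.0365, which rests on 2 and 4 UMIs. Stfa3 had 0 and 6.47 in neutrophils and 1.376 and 0.119 in other cells, of which 75 of the 97 UMIs in the first library came from 1 cell.

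Other cells were put in the class of which they showed the largest share of markers, at least 3, so the classes are ranges and not types. Of them, 624 and 372 had exactly 3 markers, and 619 and 324 fell in no class. A neutrophil-like class of 66 and 49 cells lay under the S100a8 and S100a9 threshold and so was among the other cells. It had 637.8 and 557.4 CPM of Cstdc4, 252.2 and 92.21 of Stfa2l1 and 96.42 and 192.8 of Csta2. Macrophage-like cells (3563 and 3698) had a median of 9 of 11 macrophage, 3 and 4 of 7 monocyte and 2 of 12 neutrophil markers, and monocyte-like cells (2624 and 2051) had a median of 5 of 7 monocyte, 4 and 5 of 11 macrophage and 2 of 12 neutrophil markers. Csta2 had 98.23 and 121.3 CPM in macrophage-like and 73.64 and 141.5 in monocyte-like cells, and the order of these classes differed between the libraries. It had 7.595 and 2.362 in microglia-like cells, 0.889 and 6.808 in dendritic-like cells, 4.006 and 11.7 in T or NK-like cells and 2.206 and 0 in B or plasma-like cells. Cstdc4 had 74.2 and 86.07 in macrophage-like and 36.21 and 116.1 in monocyte-like cells, against 18.16 and 3.543 in microglia-like cells. After thinning, 3.515% and 4.722% of macrophage-like cells had Csta2 (95% Clopper-Pearson intervals 2.923% to 4.188% and 4.058% to 5.459%), above the 0.678% and 0.550% of T or NK-like cells (0.0822% to 2.427% and 0.0139% to 3.023%).

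**Figure D5:**
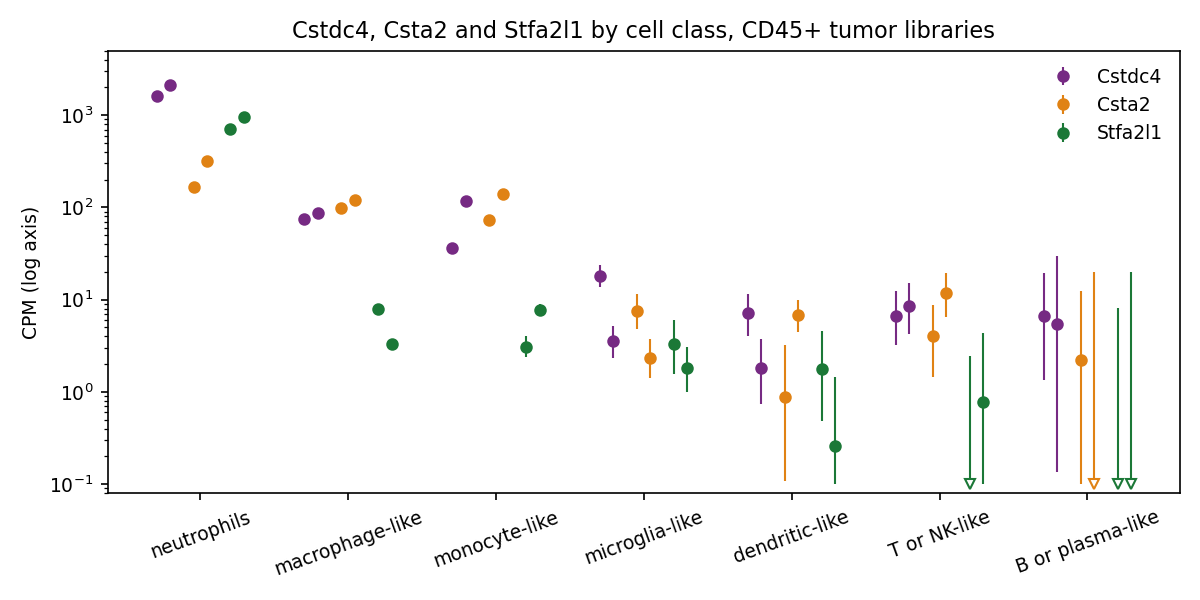
CPM (log axis) of Cstdc4, Csta2 and Stfa2l1 by cell class in the CD45+ tumor libraries, with a point per library and 95% Poisson intervals for counting error only. Open triangles mark classes with 0 UMIs, and Csta2 in macrophage-like and monocyte-like cells lies below its level in neutrophils, by far less than Stfa2l1 does.

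The mix in these cells was not that of neutrophils. There were 1.32 and 1.41 Csta2 UMIs per Cstdc4 UMI in macrophage-like cells, against 0.103 and 0.15 in CD45+ tumor neutrophils, and 0.108 and 0.0381 Stfa2l1 UMIs per Cstdc4 UMI. Retnlg, a neutrophil marker, had 4.665 and 4.684 CPM in macrophage-like cells. The members were concentrated in few cells: the hundredth of other cells with the most Cstdc4 held 93.4% and 86.3% of its UMIs, with up to 410 and 377 UMIs in 1 cell, and the same share for Csta2 was 65.5% and 59.5%, with up to 170 and 462 in 1 cell. Of other cells with Csta2, 22.8% and 29.7% had Cstdc4, against 0.616% and 0.896% of those without it. Within macrophage-like and monocyte-like cells, Csta2 had 127.3 and 207.3 CPM in the top and 43.09 and 50.04 in the bottom part by hypoxia genes, and Cstdc4 had 111.5 and 159.5 in the top and 18.05 and 35.17 in the bottom part. Ranked by the 7 granule genes, which neutrophils make, the same cells differed more: Cstdc4 had 96.01 and 203.7 CPM in the top and 8.248 and 8.136 in the bottom part, Stfa2l1 12.5 and 9.005 in the top and 0.7019 and 0.3334 in the bottom part, and Csta2 135.5 and 225.3 in the top and 35.39 and 33.88 in the bottom part. Granule genes, of which Chil3 is also known from monocytes and macrophages, thus moved with the members among these cells. By interferon-response genes Csta2 had 21.91 and 52.15 in the top and 100.8 and 194.9 in the bottom part. Doublets with neutrophils were removed only up to an expected rate, and their part in these values was not tested.

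Stefins act on papain-like cysteine cathepsins. Most genes of a wider list of cysteine proteases were higher in tumor neutrophils. The list holds cathepsins and also Lgmn, which is not a cathepsin. Of 11 listed, 10 were tested in sorted tumor against blood, and 8 were called higher, 0 lower and 2 not called, with a median log2 change of 3.40 against 0.02 over all genes, of which 33.3% were called higher. The lysosomal proteases Ctsb (749.5 ± 9.08 CPM in sorted tumor against 72.05 ± 0.645 in blood, TMM-scaled), Ctsl (562.5 ± 29.9 against 43.0 ± 2.00) and Ctss (771.5 ± 140.5 against 67.1 ± 21.0) differed by log2 changes of 3.38, 3.71 and 3.52, and Lgmn, the asparagine-specific protease legumain, by 6.29. In CD45+ tumor against blood 8 of 10 were called higher and 0 lower, against 30% of all genes called higher. Macrophages also carry these RNAs, and the macrophage marker sums above moved with them. With marker-carrying cells left out, 6 of 9 were called higher and 0 lower in each comparison, against 30.2% of all genes called higher in sorted tumor and 20.2% in CD45+ tumor. In sorted tumor the log2 changes were then 3.10 for Ctsb, 3.51 for Ctsl, 1.14 for Ctss and 4.25 for Lgmn. Of 13 other cystatin genes, 3 were tested in sorted tumor against blood. Cstb, which encodes stefin B, the other intracellular cystatin, was higher by 3.73 ± 0.20 (edgeR adjusted p = 6.14e-06), Cst7 was higher by 5.54, and Cst3 (0.31, edgeR adjusted p = 0.121) did not pass. In CD45+ tumor against blood all 3 were called higher, Cstb by 2.48, Cst7 by 6.40 and Cst3 by 0.91 (edgeR adjusted p = 0.032). With marker-carrying cells left out Cstb was higher by 4.12 in sorted tumor and by 3.12 in CD45+ tumor. Cst3 was then called lower in sorted tumor (-0.97, edgeR adjusted p = 0.00065) and had -0.27 in CD45+ tumor (edgeR adjusted p = 0.411). Cst7 fell to 2.41 in sorted tumor (edgeR adjusted p = 0.00473) and was not among the 2 cystatins tested in CD45+ tumor. In all neutrophils its blood mean was only 0.372 CPM, TMM-scaled with sorted tumor.

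Neighbouring genes of the cluster differed in both directions in sorted tumor. Of 4 listed, 3 were tested in sorted tumor against blood: Csta3 was higher by 1.15 ± 0.29 (edgeR adjusted p = 0.00894), Cstdc5 lower by a log2 change of -1.20 ± 0.36 (edgeR adjusted p = 0.0195), and Cstdc6 (0.84, edgeR adjusted p = 0.102) did not pass. In CD45+ tumor against blood Csta3 had a log2 change of 0.02 with overlapping values (edgeR adjusted p = 0.948), and Cstdc5 was lower by a log2 change of -2.93 (edgeR adjusted p = 0.00611). With marker-carrying cells left out Cstdc6 was called higher in sorted tumor (1.34, edgeR adjusted p = 0.0319) and Cstdc5 was no longer called there (-0.71, edgeR adjusted p = 0.102). Csta3 carries the shared promoter run. So do Cstdc4, which was called higher in sorted tumor against blood, and Stfa1, Stfa2l1 and Stfa3, which were called lower. Csta2, which was called higher, lacks it in the window used, and a link of the run to these differences was not tested. Cstdc5 shares 3' sequence with Stfa1, and their values lay on the same side. Markers of keratinocytes, which are known for stefin A, summed to between 0.466 and 1.44 CPM in neutrophils, with Krt5 and Krt14 at 0 in every library.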

How the data were processed

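The authors deposited unnormalized UMI counts for each gene in each cell. The submitters' processing notes name Cell Ranger 7.1.0 and the mm10 build. The annotation and the treatment of reads that match several genes are not given in the sources used here. The 6 libraries held between 13945799 and 129422458 UMIs in between 3121 and 9418 barcodes. Intervals and floors (3 counts) cover counting error only.

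Barcodes under 200 genes or over 10% mitochondrial UMIs were left out. Those with the highest Scrublet scores (scanpy 1.11.5) were removed up to 0.8% per 1000 cells, which left 4003 and 6235 (sorted tumor), 8652 and 8107 (CD45+ tumor) and 3037 and 5084 (blood) cells. UMIs were summed per library over neutrophils and tested across all genes with edgeR 4.0.16 (TMM, filterByExpr, quasi-likelihood test, R 4.3.3), with Benjamini-Hochberg adjustment and a threshold of 0.05, within each pair of groups. Shares of cells were computed after thinning to 1000 UMIs, with exact 95% intervals from scipy 1.17.1. Alternatives were RLE size factors, DESeq2 1.42.0, no filter, thresholds of 0.25%, 1% and 2%, marker-carrying cells left out, no doublet removal, a replicate block and each library left out, and, chosen after seeing the data, the shared barcodes left out. The genes named are the 6 members, the listed neighbours, cystatins and cysteine proteases, and the genes most like the members. Cells were classed by markers and not clustered. The members and lists were chosen with earlier results of these data known.

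On simulated counts, sorted tumor against blood recovered 58.3% of 2-fold and 95.7% of 4-fold changes with 3 false calls over 13196 genes, CD45+ tumor against blood 23.9% and 71.6% with 4 over 11455, and sorted against CD45+ tumor 32% and 76.3% with 6 over 11949. The simulation changed only a small part of the genes, evenly up and down, with a spread set by expression level. In the data 33.3% and 30.7% of genes were called higher and lower in sorted tumor against blood. The simulation therefore cannot give the rate of false calls in these data.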

Additional observations from a re-analysis of the deposited data

Results flagged for a closer look

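Within neutrophils, several patterns went one way in each sorted tumor library and the other way in each blood library, and in none of them was the difference between tissues tested. They were picked by this direction alone, from each member and the ratio of Cstdc4 to Stfa2l1 under the hypoxia, granule and interferon-response lists. Their opposite directions are therefore not a result. Most items screened did not show it, and some values given lie close to 1. Values are ratios of the top to the bottom of 3 equal parts of cells ranked by a gene list. By hypoxia genes, Cstdc4 was 1.93 and 1.26 times as high in sorted tumor against 0.93 and 0.833 times in blood, and the ratio of Cstdc4 to Stfa2l1 was 1.92 and 1.41 times against 0.977 and 0.895 times. Stfa3, at few UMIs, was 1.08 and 1.71 times as high in sorted tumor against 0.559 and 0.845 times in blood, and with marker-carrying cells left out it was 0.907 and 1.38 times in sorted tumor, so the direction was lost in 1 library. By interferon-response genes, Csta2 was 0.298 and 0.358 times as high in sorted tumor against 2.2 and 1.11 times in blood, where it had 155 and 135 UMIs in all neutrophils. By granule genes, the ratio of Cstdc4 to Stfa2l1 was 0.669 and 0.852 times in sorted tumor against 1.02 and 1.32 times in blood.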

How the results depend on the processing

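In sorted tumor against blood, Csta2 and Cstdc4 were called higher and Stfa1 and Stfa3 lower under each of the alternatives, and Stfa2 ranged from -1.37 to 0.19 over the libraries left out (0.19 without blood 1). In CD45+ tumor against blood, 2 members were called higher at thresholds of 1% and 2%, with marker-carrying cells left out and without CD45+ tumor 1 (1 to 2 over the libraries left out). There 1 and 2 members were called lower at 2% and with marker-carrying cells left out. Genes called were 2361 higher and 2377 lower at 2%, and 2200 and 2198 with marker-carrying cells left out, which leaves fewer cells. Over the libraries left out they ran from 2297 to 3839 higher and from 2371 to 3903 lower, and Cstdc4 was -0.16 with no doublet removal. Sorted against CD45+ tumor depended most on the settings. Genes called higher and lower there were 602 and 530 with DESeq2, 1256 and 1271 with no filter, 1777 and 2036 at 0.25%, 1 and 14 at 1%, 0 and 0 at 2%, 0 and 0 with marker-carrying cells left out, 2163 and 2416 with no doublet removal and 1 and 33 without the shared barcodes. With the replicate block 513 genes and 4 members were called higher, and 4 members also with DESeq2, no filter, 0.25% and no doublet removal, against 0 at 1%, 2%, with marker-carrying cells left out and without the shared barcodes. Over the libraries left out, genes higher ran from 3 to 722, genes lower from 27 to 1063 and members higher from 0 to 5. Stfa3 there was -1.70 at 0.25%, -0.45 at 2% and -0.61 with marker-carrying cells left out, and from -0.18 to 8.95 over the libraries left out. Csta2 was -0.12 at 0.25% and -0.46 with marker-carrying cells left out, and from -0.32 to 0.92 over the libraries left out. The log2 ratio of the summed members in neutrophils over other cells, 4.16, was 4.07 at 0.25%, 4.22 at 1%, 4.56 at 2%, 3.77 with no doublet removal and 4.16 without the shared barcodes. In sorted against CD45+ tumor, 35.6% of called genes were higher, against 53.2% with DESeq2 and 49.7% with no filter. The median over all genes was 0.13 with DESeq2 and 0.12 with no filter in sorted tumor against blood, 0.27 and -0.35 in CD45+ tumor against blood, and 0.22 with no filter in sorted against CD45+ tumor. The sample numbers were not shown to pair samples (correlations of -0.054, 0.075 and -0.017), and with the block Stfa2 was called lower in sorted tumor against blood (-0.60, edgeR adjusted p = 0.0433). The cause of these changes was not tested. Depth limits the CD45+ tumor neutrophils most.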

Other observations

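Sorted tumor libraries also held 656 and 687 cells under the S100a8 and S100a9 threshold. The members were present there with 521.7 ± 15.6 CPM of Cstdc4, 116.4 ± 22.5 of Stfa2l1 and 55.9 ± 9.74 of Csta2 (SD, n = 2). The 86 and 78 such cells of the blood libraries had 36.0 ± 1.82 of Cstdc4 and 107.1 ± 75.6 of Stfa2l1, with 0 UMIs of Csta2.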
